A study of Mus musculus with 6 samples.

Results

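The comparison set 4 knockdown libraries, taken as one group, against 2 control libraries, which together are all 6 libraries of the series. The group was chosen by sample label alone: the 4 libraries are the 2 in which Glis3 was targeted and the 2 in which CD133 was targeted, and no measured value entered the choice. All colonies were primary colonies grown for 3 weeks from pancreatic cells of adult C57Bl/6 mice aged 2 to 4 months, sorted for high surface CD133 and low CD71 (the transferrin receptor), a fraction said to be enriched in progenitor cells. All were cultured in methylcellulose with Matrigel, serum, conditioned medium, RSPO1 (an enhancer of Wnt signalling), nicotinamide, exendin-4 and activin B. Every library, the controls included, came from cells exposed overnight to lentivirus with polybrene and then kept under puromycin. Control cells received 1 shRNA with no mammalian target, whereas each knockdown received a pool of 5 shRNA clones. A difference that both knockdowns share against control therefore cannot be told apart from a difference between pools of targeting shRNAs and this 1 control shRNA, or from a property of the 2 control libraries. The labels do not say whether libraries of a group came from separate mice or cultures, so p-values here reflect only how these libraries vary, which may be technical.

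As background, Glis3 is a zinc-finger transcription factor related to the Gli proteins, and CD133 is a membrane glycoprotein of epithelial protrusions encoded by Prom1. Epithelial progenitors that form colonies divide, and dividing cells make membrane: the genes of mitosis are switched on late in the cell cycle through promoter elements that include the CCAAT box, bound by the factor NF-Y, and the element TTTGAA, while the enzymes of cholesterol synthesis are driven by SREBP2, which often works together with NF-Y. When sterols are plentiful, INSIG proteins hold SREBP2 in the endoplasmic reticulum and the pathway is turned down. Ductal epithelium also secretes proteins otherwise known from liver and plasma, among them complement factors and metal carriers.

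Expression was measured by sequencing of poly(A) RNA as RPKM, reads scaled to transcript length and library size, so that levels may be compared between genes. Depth, estimated from the steps between low values, lay between 25.8 and 29.2 megareads in all libraries. Pearson's r of log2(RPKM + 1) across genes was 0.992 to 0.995 within a group and 0.979 to 0.99 between groups, with genes not being independent replicates. The first principal component, with 47.4% of the variance, placed the controls at 16.4 and 15.4 and the 4 knockdown libraries between -13.7 and -2.01. The second component, with 30.2%, held the Glis3 knockdown libraries at 4.6 and 13.6 and the CD133 knockdown libraries at -13.9 and -10.0. The controls thus stood apart from all knockdown libraries along the first component, while the second separated the 2 pools.

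Markers of pancreatic duct were abundant in every library. Of 31 ductal markers 27 were tested, and their summed level was 10290 and 10920 RPKM in the controls and 7931 to 9422 RPKM in the knockdown libraries. The largest part of that sum was Spp1 (osteopontin), named after its values were seen, at 6490 and 6733 RPKM in the controls, 5212 and 4168 in the Glis3 knockdown and 3127 and 4202 in the CD133 knockdown. The median fold change of the ductal markers was -0.017 on the log2 scale, with 13 above and 14 below 0. Krt19, the keratin of simple ductal epithelium, stood at 432 and 474 RPKM in the controls, 589 and 642 in the Glis3 knockdown and 825 and 619.5 in the CD133 knockdown. Markers of other cells that the sort could have held were mostly under a mean of 1 RPKM, apart from the neural ones. That mean was reached by 7 of 32 endocrine, 1 of 30 acinar, 1 of 24 mesenchymal, 2 of 15 endothelial, 2 of 22 leukocyte, 8 of 15 neural and 0 of 11 erythroid markers. The endocrine markers summed to 33.3 and 43.2 RPKM in the controls, 63.25 and 48.3 in the Glis3 knockdown and 60.1 and 54.2 in the CD133 knockdown. The neural markers summed to 71.3 and 71.6 RPKM in the controls and 71.2 to 74.2 RPKM in the knockdown libraries. The acinar marker was Reg1, a secreted lectin, at 197 and 304 RPKM in control colonies, 108 and 48.6 in the Glis3 knockdown and 388 and 382 in the CD133 knockdown. The mesenchymal marker was Fn1 (fibronectin), which epithelium makes too, at 112 and 112 RPKM in the controls, 53.5 and 56.3 in the Glis3 knockdown and 84.7 and 87.8 in the CD133 knockdown. The endothelial pair summed to 2.99 and 3.00 RPKM in the controls and 2.79 to 3.13 RPKM in the knockdown libraries. The leukocyte pair was nearly all Cd14, an endotoxin co-receptor, and summed to 400.7 and 428 RPKM in the controls and 299 to 379 RPKM in the knockdown libraries. Fewer cells of a type and less RNA per cell cannot be told apart in such bulk samples.

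Each targeted RNA was lower in its own pool and near the control level in the other. Glis3 stood at 26.1 and 24.2 RPKM in the controls, 13.3 and 11.96 in the Glis3 knockdown and 24.8 and 24.2 in the CD133 knockdown. Prom1 stood at 191 and 203 RPKM in the controls, 221 and 202 in the Glis3 knockdown and 88.03 and 96 in the CD133 knockdown. Neither passed the pooled comparison, in which 2 of the 4 libraries were not targeted for it: the log2 fold change was -0.49 (SE 0.301, adjusted p = 0.358) for Glis3 and -0.50 (SE 0.395, adjusted p = 0.478) for Prom1. Between the 2 pools both differed, Glis3 by -0.90 (adjusted p = 0.00522) and Prom1 by 1.19 (adjusted p = 0.00410), given as Glis3 knockdown minus CD133 knockdown on the log2 scale.

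Against control, 406 of 10829 genes tested rose and 119 fell in the pooled comparison, which is 3.75% and 1.1%, or 4.85% in either direction (limma with Benjamini-Hochberg adjustment over all genes, adjusted p under 0.05). Fold changes are differences of log2(RPKM + 1), a scale that understates the change of genes with low levels. Most changes were small. The median was 0.46 among genes that rose and -0.52 among those that fell, and 12 rises and 23 falls reached a doubling or halving on this scale. In all 525 genes the 4 knockdown libraries lay beyond both controls, an arrangement that 26% of genes tested showed upward and 11.5% downward. Over all genes the median fold change was 0.042, and 61.6% of genes had a fold change above 0 against 38.4% below. Rises made up 77.3% of the calls as reported, 53.6% after median centring (216 rises and 187 falls) and 59.5% after quantile normalization (203 and 138).

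Leaving out either control removed every call. Without control library 1, limma called 0 genes (smallest adjusted p 0.13), with 1228 rises and 409 falls at an unadjusted p under 0.05. Without control library 3 it called 0 genes as well (smallest adjusted p 0.103), with 1334 rises and 437 falls at that unadjusted level. With both controls those counts were 1976 and 775, or 25.4% of all genes. When 1 control is left, the spread comes from the knockdown libraries alone, and the lone control is assumed to vary as they do. Leaving out a knockdown library gave 101 rises and 34 falls without Glis3 library 1, 627 and 152 without Glis3 library 3, 111 and 23 without CD133 library 1, and 306 and 126 without CD133 library 3. A fit with 3 group means, in which the difference between the 2 pools no longer adds to the spread, called 1195 rises and 532 falls, with all 525 among them. Adding the replicate number of the titles to the 2-group fit, as a replicate block, left 28 rises and 4 falls. The plot of counts by processing shows these numbers side by side.

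**Figure D1:**
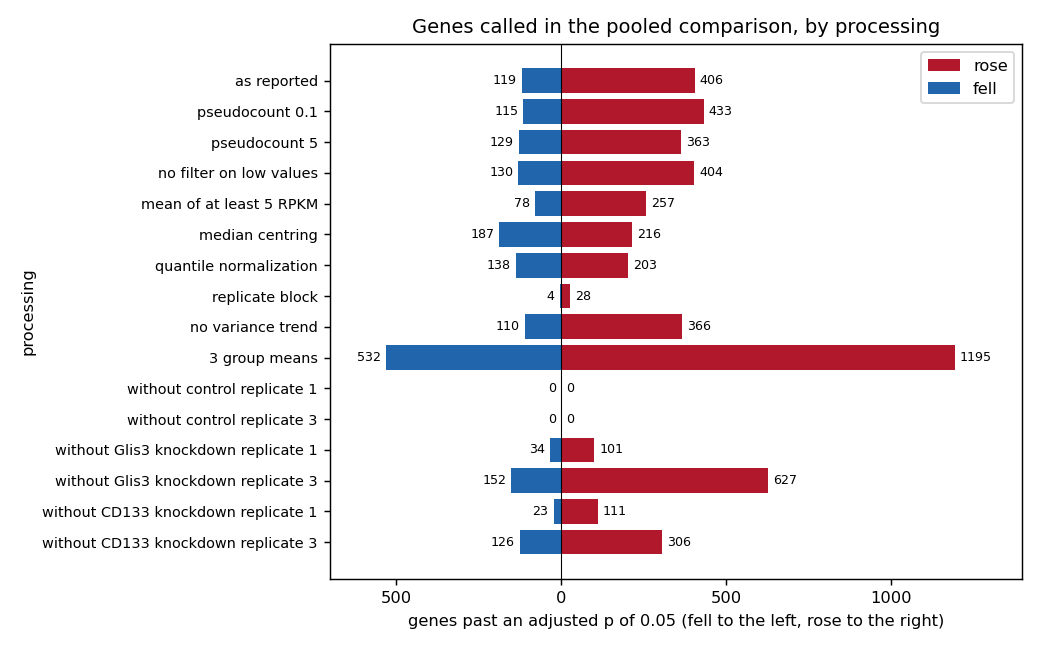
Number of genes past an adjusted p of 0.05 in the pooled comparison under each processing setting, with falls drawn to the left and rises to the right of 0. The reported setting gave 119 falls and 406 rises, the fit with 3 group means gave the most, and leaving out either control library gave 0.

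Among the largest rises were 2 carboxylesterase genes and a lipocalin gene that were low in the controls. Ces1g, a carboxylesterase of lipid and drug ester hydrolysis, stood at 0.410 and 0.190 RPKM in the controls, 6.77 and 19.2 in the Glis3 knockdown and 11 and 3.62 in the CD133 knockdown. Every knockdown library lay above both controls, although the 4 differed widely among themselves, and the log2 fold change was 2.90 (SE 0.519, 95% interval 1.67 to 4.13, adjusted p = 0.0345). The neighbouring Ces1f (chromosome 8, 93256236 to 93279747, minus strand, GRCm38), beside Ces1g at 93302369 to 93337308, went from 0.430 and 0.350 RPKM to 2.09 and 7.27 and 3.41 and 2.77 in the Glis3 and CD133 knockdown libraries (log2 fold change 1.71, SE 0.354, adjusted p = 0.0459). Reads of such close paralogs are hard to assign, so the values of these 2 genes are less certain than most. Obp2b, an odorant-binding lipocalin with near paralogs as well, stood at 2.91 and 2.43 RPKM in the controls against 12.99 and 10.1 and 5.57 and 9.50 (log2 fold change 1.48, adjusted p = 0.0355).

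Among rises with tighter spread, B4galnt2, a glycosyltransferase that builds the Sda carbohydrate antigen of gut epithelium, stood at 0.590 and 0.480 RPKM in the controls, 3.76 and 3.53 in the Glis3 knockdown and 2.80 and 2.61 in the CD133 knockdown (log2 fold change 1.43, SE 0.129, adjusted p = 0.0109). Ugt8a, which makes galactosylceramide, went from 0.790 and 0.690 RPKM to 3.44 and 3.62 and 2.62 and 3.11 (log2 fold change 1.26, SE 0.109, adjusted p = 0.0109). These 2 enzymes of cell-surface sugars had the smallest adjusted p of the 19 largest rises with assigned names. Cpm, a membrane carboxypeptidase, was at 5.72 and 5.79 RPKM in the controls and at 18.2 and 17.6 and 13.4 and 11.01 in the pools (log2 fold change 1.22, adjusted p = 0.0232). Further rises were those of Atg9b (a membrane protein of autophagy) at 1.41, Ppp2r2c (a regulatory subunit of phosphatase 2A) at 1.22, Hmgn3 (a nucleosome-binding protein) at 1.08, Ccdc33 at 1.05, Ceacam1 (an epithelial adhesion molecule) at 0.93, Crip1 (a LIM domain protein) at 0.93, Phgr1 at 0.92 and Rsrp1 at 0.92 on the log2 scale. Their adjusted p lay between 0.0125 and 0.0461. Of all 406 rises, 11 are loci without an assigned name.

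The largest fall was that of Pglyrp3, a secreted peptidoglycan-binding protein that kills bacteria (chromosome 3, 92014583 to 92031582, plus strand). It stood at 35.6 and 32.7 RPKM in the controls, 4.48 and 4.41 in the Glis3 knockdown and 6.14 and 11.04 in the CD133 knockdown, with every knockdown library well below both controls (log2 fold change -2.31, SE 0.310, 95% interval -3.04 to -1.57, adjusted p = 0.0181). Tmem178, a regulator of calcium release from the endoplasmic reticulum, fell evenly from 9.98 and 9.74 RPKM to 3.16 and 2.36 and 2.52 and 3.52 (log2 fold change -1.49, SE 0.125, adjusted p = 0.0109). Sema5a, a membrane semaphorin of axon guidance, went from 22.5 and 20.1 RPKM to 9.98 and 10.2 and 8.79 and 11.3 (log2 fold change -1.01, SE 0.0959, adjusted p = 0.0109). For both genes the 2 pools were nearly alike, with a difference between them of -0.093 (95% interval -0.43 to 0.25) for Tmem178 and 0.0096 (-0.26 to 0.28) for Sema5a.

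Several receptors and transporters of the cell surface were among the large falls. Gpc3, a glypican that binds growth factors, stood at 10.7 and 7.95 RPKM in the controls and at 2.74 and 2.01 and 1.53 and 5.01 in the pools (log2 fold change -1.50, adjusted p = 0.0491). Adora2b (the low-affinity adenosine receptor) fell by 1.12, Bdkrb2 (the bradykinin receptor) by 1.11 and Slc7a2 (a transporter of arginine and lysine) by 1.08. Sgk1, a kinase that activates sodium channels and transporters, fell by 1.05, the fatty acid hydroxylase gene Cyp4b1 by 1.23, and Efemp2, an elastic fibre protein, by 1.03. Ctsw, a cysteine cathepsin best known from lymphocytes, fell by 1.05 from a level of 2.70 and 2.34 RPKM in the controls. Exons of Ctsw and Efemp2 overlap those of a gene on the opposite strand, and whether the counting used strand is not given in the sources used here, so both values are less certain. The heat map of the largest changes shows the controls near 0, as values were centred on the control mean. Its genes were chosen with all 4 knockdown libraries beyond both controls, so the same sign in all 4 was set by that choice.

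**Figure D2:**
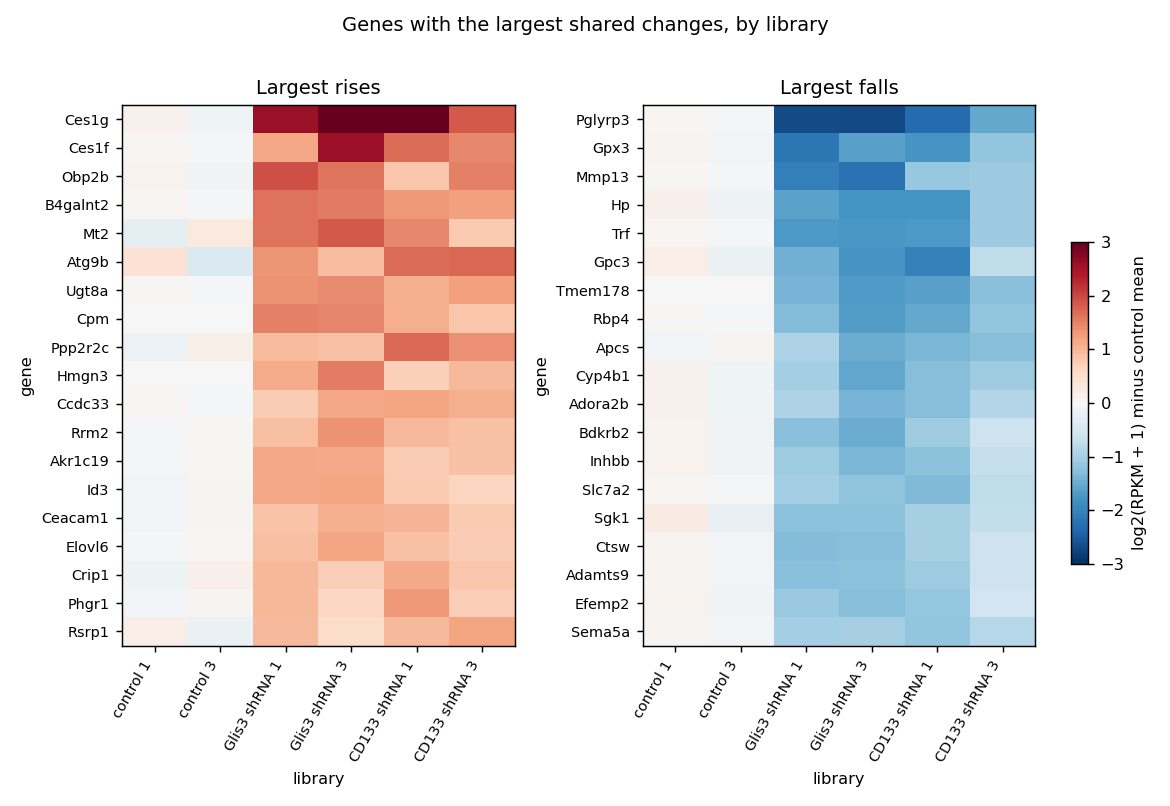
Heat maps of the 19 largest rises with assigned names (left) and 19 of the 20 largest falls (right) past the threshold, each library as a column and each gene as a row, coloured by log2(RPKM + 1) minus the control mean on a scale that ends at 3 in either direction. The knockdown columns are red throughout on the left and blue throughout on the right, and Glis3 library 3 and CD133 library 1 of Ces1g reach past the end of the scale.

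Genes of cell division were higher in the pooled knockdowns. Of 35 mitosis genes tested 21 rose and 0 fell, leaving 14 under the threshold, against 3.75% of all genes rising, and the median fold change was 0.63 against 0.042 for all genes. All 35 lay above both controls in every knockdown library, against 26% of all genes. The summed level was 214 and 229 RPKM in the controls, 359 and 464 in the Glis3 knockdown, and 356 and 317 in the CD133 knockdown, so that Glis3 library 3 was the highest and CD133 library 3 the lowest of the 4. The median was 0.79 for the Glis3 and 0.53 for the CD133 knockdown against the same controls, and no member differed between the pools past the threshold.

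Aurka, the kinase of centrosome maturation, stood at 3.47 and 4.53 RPKM in the controls, 7.98 and 9.67 in the Glis3 knockdown and 8.53 and 7.26 in the CD133 knockdown (log2 fold change 0.91, SE 0.123, adjusted p = 0.0185). Ccnb2, a B-type cyclin of mitotic entry, went from 11.9 and 14.4 RPKM to 22.6 and 26.9 and 22.01 and 19.8 (log2 fold change 0.75, SE 0.123, adjusted p = 0.0281). The mitotic entry factor Cdca3 rose by 0.78 and Ccna2, the cyclin of S phase and G2, by 0.71, the latter sharing exon sequence with a gene on the opposite strand. For these 4 genes, the lowest knockdown library was above the higher control. The count of mitosis genes that rose was 12 with quantile normalization, 0 without control library 1 or 3, 3 without Glis3 library 1, 4 without CD133 library 1 and 35 without Glis3 library 3.

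DNA synthesis genes were higher too, by less. Of 36 DNA replication genes 11 rose and 0 fell, against 3.75% of all genes rising. The median was 0.36, and all 36 lay above both controls, against 26% of all genes. Rrm2, the regulated subunit of ribonucleotide reductase, stood at 8.88 and 9.27 RPKM in the controls, 17.9 and 24.8 in the Glis3 knockdown and 18.8 and 17.6 in the CD133 knockdown (log2 fold change 1.03, SE 0.132, adjusted p = 0.0167). Uhrf1, which keeps DNA methylation through replication, went from 8.87 and 9.39 RPKM to 17.3 and 20.8 and 16.6 and 14.7 (log2 fold change 0.85, adjusted p = 0.0210). The thymidine kinase gene Tk1 rose by 0.67 and Mcm5, a subunit of the replicative helicase, by 0.61. Without Glis3 library 1 the list had 2 rises, without CD133 library 1 it had 3, without either control 0, and without Glis3 library 3 it had 19, while quantile normalization gave 4 and median centring 6.

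Some members of the chromatin and p53 target lists were other genes of dividing cells. Of 29 chromatin and histone genes 5 rose and 0 fell (median 0.24), against 3.75% of all genes rising. They were the condensin subunits Ncapg, Ncapd2 and Ncaph at 0.68, 0.67 and 0.58, and the histone genes H2afz at 0.41 and Hist1h2bc at 0.46. Exons of Ncapg overlap those of a gene on the opposite strand. H2afz, a histone variant found at promoters, was among the most abundant of the rises, at 101 and 119 RPKM in the controls, 146 and 154 in the Glis3 knockdown and 146 and 136 in the CD133 knockdown. Of 31 p53 targets, 6 rose and 1 fell (median 0.27), against 3.75% and 1.1% of all genes. In 27 the fold change was above 0, and in 17 all 4 knockdown libraries lay above both controls. The fit with 3 group means called 16 rises and 1 fall. The largest of the 6 rises were not of growth arrest genes but of Psrc1 (0.87), Gtse1 (0.84) and Ckap2 (0.79), which are spindle and G2 proteins. Ephx1, described below with the xenobiotic enzymes, was among the 6 as well. Gadd45a, a growth arrest gene, fell from 45.02 and 43.7 RPKM to 28.7 and 26.9 and 26.03 and 33.9 (log2 fold change -0.61, adjusted p = 0.0304). Without Glis3 library 1 or CD133 library 1, 3 of the p53 targets rose, and without either control 0 did.

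Cholesterol synthesis was the list with the highest share of members past the threshold among those with at least 5 tested. It held 25 genes, of which 18 rose and 0 fell, against 3.75% of all genes rising. Their median was 0.48. In 23 of the 25 all 4 knockdown libraries lay above both controls, against 26% of all genes. The summed level was 344 and 374 RPKM in the controls, 515 and 536 in the Glis3 knockdown, and 537 and 483 in the CD133 knockdown, so no knockdown library came near the control range. The median was 0.51 for the Glis3 and 0.46 for the CD133 knockdown. One of the members whose groups overlapped, named here after its values were seen, was Acat2, a thiolase at the entry of the pathway, at 0.0020 (adjusted p = 0.994).

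Among the genes that rose, Hmgcs1, HMG-CoA synthase, stood at 33.3 and 38.2 RPKM in the controls, 61.3 and 66.5 in the Glis3 knockdown and 68.9 and 56.3 in the CD133 knockdown (log2 fold change 0.80, SE 0.0950, 95% interval 0.58 to 1.03, adjusted p = 0.0153). Idi1, the isomerase that readies isoprene units for joining, stood at 15.4 and 19.3 RPKM in the controls, 33.3 and 38.2 in the Glis3 knockdown and 32.8 and 29.1 in the CD133 knockdown (log2 fold change 0.90, SE 0.121, adjusted p = 0.0181). Cyp51, the lanosterol demethylase, went from 16.5 and 18.7 RPKM to 29.1 and 29.9 and 31.98 and 27.1 (log2 fold change 0.72, SE 0.0794, adjusted p = 0.0132), with exon overlap to a gene on the opposite strand. The 2 pools were close in these genes, differing by 0.035 (95% interval -0.23 to 0.30) in Hmgcs1 and by 0.0037 (-0.22 to 0.22) in Cyp51. Insig1, the sterol-dependent brake on SREBP2, rose as well, from 12.3 and 13.8 RPKM to 22.3 and 21.7 and 18.9 and 18.8 (log2 fold change 0.61, adjusted p = 0.0222). Without Glis3 library 1 the list had 7 rises, without CD133 library 1 it had 10, and without control library 1 or 3 it had 0, with a median of 0.42 and 0.51 in those last 2 cases.

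**Figure D3:**
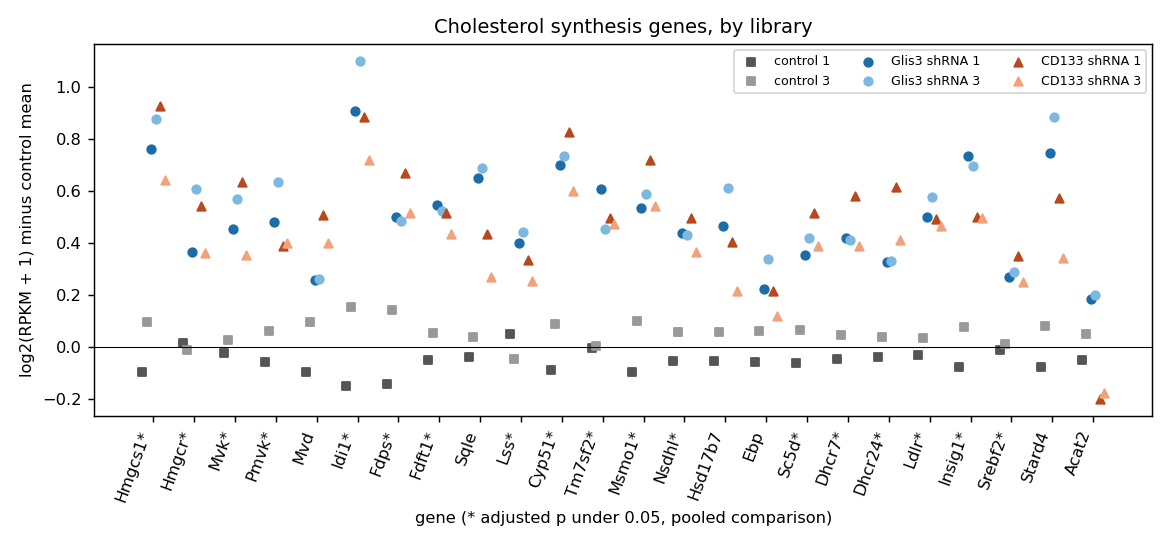
Of the 25 cholesterol synthesis genes, 24 in each library, as log2(RPKM + 1) minus the control mean, ordered from the start of the pathway to its regulators, with an asterisk on genes past the threshold in the pooled comparison. Squares are controls, circles the Glis3 and triangles the CD133 knockdown, and in 23 of them every circle and triangle lies above both squares.

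The promoters of 2 rising genes from each of the mitosis and cholesterol synthesis lists are shown as a description of sequence. Whether a promoter motif bears on the rises was not tested. Each is the 250 bases before the first listed start of the gene in RefSeq (GRCm38.p6), read 5′ to 3′ on the strand of the gene. Capitals mark CCAAT (read as ATTGG where it lies on the other strand), TTTGAA or TTTAAA, and the sterol regulatory element in the form TCACNCCAC. For marking, CCAAT was sought in all 4 promoters, TCACNCCAC in Hmgcs1 only, and TTTGAA or TTTAAA in Ccnb2 and Aurka only. Each search covered both strands, and none of the marked matches overlap. The 4 lie at chr13:119690101-119690350 (plus strand, Hmgcs1), chr13:8885356-8885605 (plus strand, Idi1), chr9:70421555-70421804 (minus strand, Ccnb2) and chr2:172370571-172370820 (minus strand, Aurka).
Hmgcs1: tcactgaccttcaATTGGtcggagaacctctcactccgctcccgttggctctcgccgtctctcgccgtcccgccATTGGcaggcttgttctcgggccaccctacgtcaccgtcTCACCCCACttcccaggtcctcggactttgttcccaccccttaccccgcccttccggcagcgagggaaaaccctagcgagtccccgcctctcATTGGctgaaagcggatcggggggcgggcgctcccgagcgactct
Idi1: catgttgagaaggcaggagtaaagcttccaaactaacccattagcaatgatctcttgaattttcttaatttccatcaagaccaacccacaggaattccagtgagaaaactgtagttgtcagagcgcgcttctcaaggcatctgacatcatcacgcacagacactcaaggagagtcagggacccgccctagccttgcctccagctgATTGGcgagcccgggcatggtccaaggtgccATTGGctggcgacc
Ccnb2: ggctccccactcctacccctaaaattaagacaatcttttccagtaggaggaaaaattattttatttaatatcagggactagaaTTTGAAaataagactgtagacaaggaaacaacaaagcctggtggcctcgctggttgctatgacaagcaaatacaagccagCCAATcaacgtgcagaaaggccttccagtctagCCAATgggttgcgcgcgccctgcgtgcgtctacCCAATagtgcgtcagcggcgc
Aurka: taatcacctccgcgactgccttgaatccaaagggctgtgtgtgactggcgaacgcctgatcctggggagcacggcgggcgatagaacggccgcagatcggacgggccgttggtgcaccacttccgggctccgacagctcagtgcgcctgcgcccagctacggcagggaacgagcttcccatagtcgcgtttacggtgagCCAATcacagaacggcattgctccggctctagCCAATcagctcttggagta

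The Hmgcs1 promoter held ATTGG beginning 237, 176 and 45 bases before the start and TCACNCCAC at 137. Idi1 held ATTGG at 45 and 14 bases before the start. Ccnb2 held CCAAT at 87, 54 and 21 and TTTGAA at 167, and Aurka held CCAAT at 51 and 19. Of the 8545 tested genes with a promoter in the table, 36.9% held CCAAT on either strand, and so did 23 of 30 mitosis genes (76.7%), 17 of 28 DNA replication genes (60.7%) and 15 of 17 cholesterol synthesis genes (88.2%). Among all rising genes 46.2% of 329 held it, among falling genes 36.6% of 93, and among ribosomal protein genes 28.1% of 57. TTTGAA or TTTAAA was found in 16.7% of all promoters, in 14 of 30 mitosis genes (46.7%) and in 2 of 17 cholesterol synthesis genes (11.8%). TCACNCCAC was found in 0.971% of all promoters and in 1 of 17 cholesterol synthesis genes. The list shares cover every member with a promoter, whether or not it rose, and the rising genes include members of these lists. A match of letters is a description of the sequence and not a binding site.

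Neighbouring lipid lists moved less. Of 19 fatty acid synthesis genes 2 rose and 0 fell (median 0.13), against 3.75% of all genes rising. In 9 all 4 knockdown libraries lay above both controls, against 26% of all genes. At an unadjusted p under 0.05 by limma 8 rose, against 1976 of all 10829 genes. Elovl6, which lengthens palmitate to stearate, went from 1.66 and 1.93 RPKM to 4.24 and 5.32 and 4.15 and 3.70 (log2 fold change 0.93, adjusted p = 0.0172), and Lpin1, a phosphatidate phosphatase, rose by 0.36. Of 10 genes of sterol and oxysterol export 0 rose and 1 fell, against 1.1% of all genes falling. It was the lysosomal cholesterol carrier Npc2, from 38.2 and 41.6 RPKM to 33.9 and 32.3 and 31.4 and 32.2 (log2 fold change -0.29, adjusted p = 0.0404).

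Enzymes that process drugs, steroids and aldehydes were higher in part. Of 23 xenobiotic enzyme genes 8 rose and 1 fell, against 3.75% and 1.1% of all genes. Their median was 0.26, and 6 had a fold change below 0. The median was 0.25 for the Glis3 but 0.050 for the CD133 knockdown, where that of all genes was 0.043, and 4 members differed between the pools. Besides the carboxylesterases, the aldo-keto reductase genes Akr1c19 and Akr1c13 rose: Akr1c19 from 7 and 7.76 RPKM to 17.8 and 17.5 and 13.2 and 14.3 (log2 fold change 0.99, adjusted p = 0.0164), and Akr1c13 from 7.26 and 8.22 RPKM to 12.8 and 12.2 and 13.5 and 12.9 (log2 fold change 0.66, SE 0.0650, adjusted p = 0.0109). Ephx1, the microsomal epoxide hydrolase, stood at 185 and 166 RPKM in the controls, 245 and 269.7 in the Glis3 knockdown and 229 and 240.2 in the CD133 knockdown (log2 fold change 0.48, adjusted p = 0.0314). Ugt2b34, a glucuronosyltransferase of a family of close paralogs, was at 123 and 135 RPKM against 193 and 188 and 177 and 155 (log2 fold change 0.46, adjusted p = 0.0485). The number of rises in this list was 4 with median centring, 5 with quantile normalization, 2 without Glis3 library 1, 2 without CD133 library 1 and 0 without either control.

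The glutathione list and the metal list each held 1 rise and 1 fall, against 3.75% and 1.1% of all genes. Of 42 glutathione and NRF2 target genes 1 rose and 1 fell (median 0.17, or 0.10 without control library 1). In 36 of the 42 the fold change was above 0, against 61.6% of all genes. In 15 all 4 knockdown libraries lay above both controls, against 26% of all genes. Pgd, an NADPH-producing enzyme of the pentose phosphate pathway, rose by 0.32, and Gpx3, the secreted glutathione peroxidase, fell from 21.9 and 19.5 RPKM to 3.81 and 6.06 and 5.37 and 8.58 (log2 fold change -1.68, SE 0.240, adjusted p = 0.0212). Of 19 metallothionein and metal transport genes, Mt2, a zinc and copper buffer, rose, with 9.60 and 15.03 RPKM in the controls, 39.4 and 45.5 in the Glis3 knockdown and 34.4 and 21.6 in the CD133 knockdown (log2 fold change 1.43, SE 0.294, adjusted p = 0.0456), and Trf, the iron carrier transferrin, fell. CD133 library 3 was the lowest of the 4 knockdown libraries for Mt2 and stood nearest to the controls. Of 14 sulfur amino acid genes 0 passed, with 4 at an unadjusted p under 0.05 (limma) and a median of 0.011.

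Most genes of plasma proteins and complement were lower. Of 35 listed 12 were tested, and 0 rose and 4 fell, against 1.1% of all genes falling. The median was -0.89 against 0.042 for all genes. In 10 of the 12 all 4 knockdown libraries lay below both controls, against 11.5% of all genes. All 12 had a fold change below 0, though Clu (clusterin) did not after quantile normalization. The summed level, mostly Clu, was 6415 and 6852 RPKM in the controls, 6316 and 5096 in the Glis3 knockdown and 6354 and 7059 in the CD133 knockdown. Hp, the haemoglobin carrier haptoglobin, stood at 7.59 and 5.95 RPKM in the controls, 1.54 and 1.22 in the Glis3 knockdown and 1.23 and 2.64 in the CD133 knockdown (log2 fold change -1.57, SE 0.211, adjusted p = 0.0181). Trf stood at 7.06 and 6.46 RPKM in the controls, 1.36 and 1.33 in the Glis3 knockdown and 1.36 and 2.67 in the CD133 knockdown (log2 fold change -1.56, SE 0.193, adjusted p = 0.0160). Both genes were low in every library, and no knockdown library reached the lower control. Rbp4, the retinol carrier, went from 28.04 and 26.4 RPKM to 10.4 and 7.83 and 8.77 and 11.4 (log2 fold change -1.42, SE 0.133, adjusted p = 0.0109).

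In all 3 of these genes (Hp, Trf and Rbp4) CD133 library 3 was the highest knockdown library and lay nearest to the controls. By library, the list's median difference from the control mean was -0.91 and -1.36 in the Glis3 knockdown and -1.0 and -0.40 in the CD133 knockdown. The 2 members whose groups overlapped, named after their values were seen, were Ttr (transthyretin), at 21.7 and 19.6 RPKM in the controls, 27.6 and 30.4 in the Glis3 knockdown and 10.3 and 12.1 in the CD133 knockdown, and Clu, the most abundant, at -0.015 (adjusted p = 0.966), or 0.37 after quantile normalization (adjusted p = 0.0183). Outside the list, Apcs, the serum amyloid P component, fell from 4.89 and 5.54 RPKM to 2.29 and 1.23 and 1.40 and 1.55 (log2 fold change -1.26, SE 0.154, adjusted p = 0.0155). The list had 9 falls without CD133 library 3, 6 without Glis3 library 3, 2 where a mean of 5 RPKM was required and 0 without either control, where its median was -0.94 and -0.87. Of 13 antimicrobial and mucosal defence genes 0 rose and 1 fell, Pglyrp3, against 1.1% of all genes falling. The median of that list was -0.30 (0.010 without Glis3 library 3 and -0.12 without control library 3), but -0.46 for the Glis3 and 0.38 for the CD133 knockdown.

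**Figure D4:**
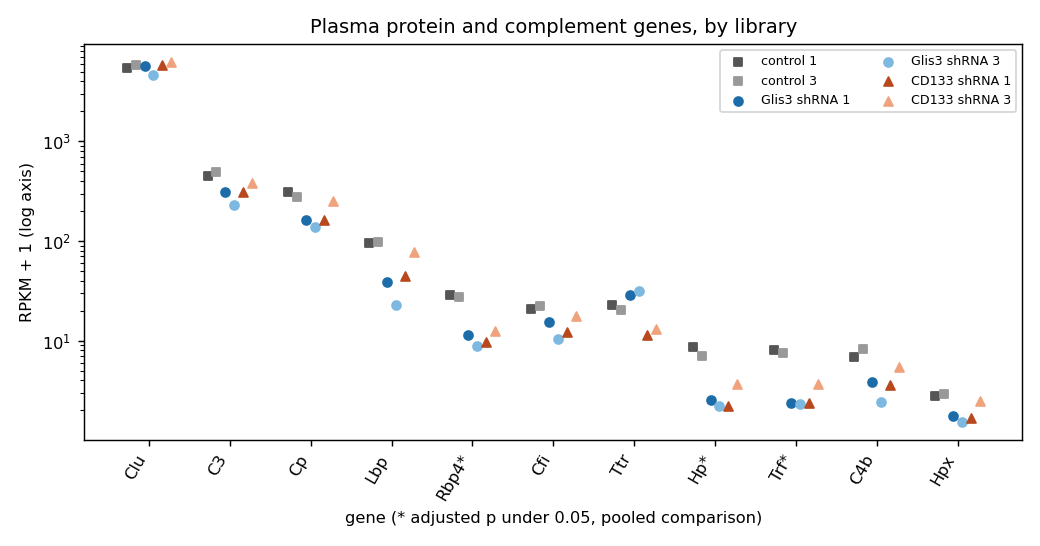
RPKM + 1 on a log axis for 11 of the 12 plasma protein and complement genes in each library, with an asterisk on the 3 of them past the threshold. In 9 of these genes all 4 knockdown libraries lie below both controls (squares), and Ttr and Clu are the exceptions.

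Activin and other TGF-beta family genes held 4 falls and 1 rise among 35 tested, against 1.1% and 3.75% of all genes. The median was -0.16, but -0.085 without Glis3 library 3, -0.10 without Glis3 library 1 and -0.080 without control library 1. It was -0.18 for the Glis3 and -0.041 for the CD133 knockdown, and 6 members differed between the pools, against 4.06% of all genes. The culture medium contained activin B, a dimer of the product of Inhbb. Inhbb itself stood at 15.8 and 13.5 RPKM in the controls, 6.41 and 5.05 in the Glis3 knockdown and 5.68 and 8.61 in the CD133 knockdown (log2 fold change -1.09, SE 0.176, adjusted p = 0.0275). Inhba, which encodes the subunit of activin A, went from 24.2 and 19.97 RPKM to 9.56 and 10.1 and 12.3 and 13.1 (log2 fold change -0.92, SE 0.137, adjusted p = 0.0222). Of the receptors, Tgfbr1, the type I receptor for TGF-beta, fell from 29.8 and 30.8 RPKM to 21.7 and 18.8 and 17.8 and 19.4 (log2 fold change -0.62, adjusted p = 0.0164). Id3, a target of BMP signalling that blocks helix-loop-helix factors, rose from 4.03 and 4.67 RPKM to 10.9 and 11.1 and 8.15 and 7.40 (log2 fold change 0.94, SE 0.163, adjusted p = 0.0312). The 2 activin subunit genes were lower in all 4 knockdown libraries, whereas 12 of the 35 members had fold changes above 0.

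Growth factor and cytokine genes changed singly, where 3.75% of all genes rose and 1.1% fell. In the EGF list of 17, Areg, the EGF receptor ligand amphiregulin, rose from 23.4 and 24.95 RPKM to 38.1 and 40.3 and 41.5 and 31.3 (log2 fold change 0.62, adjusted p = 0.0354), and Lrig1, an inhibitor of EGF receptors, fell by 0.33 (adjusted p = 0.0383), with exon overlap to a gene on the opposite strand. Of 29 chemokine and NF-kB target genes 2 rose and 0 fell, although the median was -0.071 (-0.21 for the Glis3 and 0.025 for the CD133 knockdown). Ccl20, a chemokine of mucosal epithelium, stood at 18.5 and 21.6 RPKM in the controls, 32.7 and 33.6 in the Glis3 knockdown and 37.3 and 36.4 in the CD133 knockdown (log2 fold change 0.78, SE 0.0817, adjusted p = 0.0124). The cytokine gene Tnf rose from 4.81 and 6.04 RPKM to 8.91 and 8.59 and 10.96 and 10.4 (log2 fold change 0.74, adjusted p = 0.0267). Among 22 Hippo and Yap genes, the Yap targets Amotl2 and Fjx1 fell by 0.47 and 0.39, and 0 rose.

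Matrix-degrading enzymes and their inhibitors held 3 falls. Of 28 genes of matrix proteases and inhibitors, 0 rose and 3 fell, against 3.75% of all genes rising and 1.1% falling. Mmp13, a collagenase, stood at 4.50 and 4.23 RPKM in the controls, 0.300 and 0.140 in the Glis3 knockdown and 1.44 and 1.52 in the CD133 knockdown (log2 fold change -1.63, SE 0.346, adjusted p = 0.0476). Adamts9, which cleaves proteoglycans, went from 3.47 and 2.97 RPKM to 0.780 and 0.800 and 1.01 and 1.72 (log2 fold change -1.04, adjusted p = 0.0312), and the metalloprotease inhibitor Timp3 from 112 and 94.4 RPKM to 53.7 and 70.9 and 45.6 and 63.5 (log2 fold change -0.82, adjusted p = 0.0461). The median of the list was 0.031 and -0.024 after median centring, near 0 on either scale. Of 34 integrin and focal adhesion genes 1 fell, Itgb5, a subunit of the vitronectin receptor, by 0.52. Of 35 junction genes 1 fell, Gjb2 (connexin 26), from 10.02 and 9.95 RPKM to 4.15 and 5.77 and 5.29 and 6.80 (log2 fold change -0.77, adjusted p = 0.0397). Matrix and keratin genes had 0 calls by limma, in 19 and 26 members of which 6 and 11 had an unadjusted p under 0.05, with Lamc1, a laminin chain, at 0.46 (adjusted p = 0.0534) and Krt19 at 0.55 (adjusted p = 0.0710).

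Wnt, Hedgehog and Notch lists held 0 or 1 call each in the pooled comparison, where 4.85% of all genes were called. Of 8 Wnt ligand genes none passed by limma (2 named by smallest p: Wnt16 at -0.92, adjusted p = 0.0719, and Wnt7a at -0.40, adjusted p = 0.334). Wnt16 was at 2.71 and 2.04 RPKM in the controls, 0.380 and 0.530 in the Glis3 knockdown and 0.850 and 1.53 in the CD133 knockdown, so that its groups did not overlap. Wnt7a was at 24.7 and 26.9 RPKM, 17.97 and 13.01 and 23.4 and 25.01, the CD133 knockdown overlapping the control range. Of 21 receptors and secreted regulators, and likewise of 15 Wnt target genes, 1 rose: Rnf43, a ubiquitin ligase that clears Frizzled receptors and whose action RSPO1 blocks. It stood at 21.2 and 20.6 RPKM in the controls, 25.9 and 26.5 in the Glis3 knockdown and 30.6 and 26.4 in the CD133 knockdown (log2 fold change 0.37, SE 0.0746, adjusted p = 0.0441). That call was lost with median centring and with quantile normalization. None of 23 intracellular Wnt components passed, with Tcf7l2, a nuclear effector, at 0.28 (adjusted p = 0.0659) and the corepressor gene Tle4 at 0.23. None of 8 Hedgehog and Gli genes passed, with Ptch1, the Hedgehog receptor, at -0.22 (adjusted p = 0.124). Of 17 Notch pathway genes 1 fell, the coactivator gene Maml1, by 0.30 (adjusted p = 0.0445). At an unadjusted p under 0.05 by limma, 4 of 21 receptors and regulators, 6 of 15 Wnt targets and 3 of 17 Notch genes passed. Over all genes that share was 25.4%.

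Lists of identity genes held 0 to 2 calls each, where 3.75% of all genes rose and 1.1% fell. Of 27 ductal markers 0 rose and 1 fell: Bicc1, an RNA-binding protein of tubular epithelia, from 127 and 119 RPKM to 93.5 and 82.2 and 90.1 and 93.3 (log2 fold change -0.45, SE 0.0701, adjusted p = 0.0251). Of 24 progenitor factors, Nkx6-1, a homeodomain factor of pancreatic progenitors and beta cells, rose from 4.11 and 3.67 RPKM to 6.49 and 5.25 and 5.90 and 6.12 (log2 fold change 0.50, adjusted p = 0.0304). Dclk1, a kinase found in tuft and progenitor-like cells, fell from 13.1 and 12.5 RPKM to 7.96 and 6.57 and 7.06 and 8.90 (log2 fold change -0.69, adjusted p = 0.0255). Of 7 endocrine markers tested, out of 32 listed, 2 rose. They were Nkx6-1 and Cpe, the carboxypeptidase of prohormone processing. Cpe stood at 20.6 and 23.8 RPKM in the controls, 33.9 and 32.5 in the Glis3 knockdown and 46.3 and 42.6 in the CD133 knockdown (log2 fold change 0.77, adjusted p = 0.0416). Of 8 neural markers 1 rose, the microtubule protein gene Map2, by 0.52. Among 10 motile cilium genes 0 rose and 1 fell, the axonemal gene Cfap43, from 4.84 and 4.37 RPKM to 2.59 and 2.19 and 2.65 and 3.41 (log2 fold change -0.60, adjusted p = 0.0462). The median of these cilium genes was -0.33 pooled (-0.21 without Glis3 library 3), with -0.55 for the Glis3 and -0.12 for the CD133 knockdown. None of 7 gastric and mucous genes passed, with Anxa13, an intestinal annexin, at 0.90 (adjusted p = 0.0895) and the trefoil peptide gene Tff2 at -0.71, and with 2 at an unadjusted p under 0.05 (limma).

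Lists that bear on the shRNA vectors themselves held 0 or 1 call each, where 4.85% of all genes were called. All libraries carried an shRNA, which cells process like a microRNA precursor, and double-stranded RNA can start an interferon response. Of 19 interferon-stimulated genes tested, out of 50 listed, 1 rose and 0 fell (median 0.18), with 10 above both controls in every knockdown library, an arrangement of 26% of all genes. At an unadjusted p under 0.05 by limma, 9 of the 19 and 9 of 19 antigen presentation genes were above control. Of all 10829 genes tested, 1976 rose at that level. The fit with 3 group means called 5 rises in each list. A fold change above 0 was held by 17 of the 19 interferon and 15 of the 19 antigen presentation genes, against 61.6% of all genes. The antigen presentation median was 0.22, against 0.042 for all genes, with 8 members above both controls in every knockdown library. Of the antigen presentation genes 1 rose in the pooled fit, the peptide transporter gene Tap1, from 2.1 and 2.2 RPKM to 3.04 and 3.80 and 4.03 and 3.45 (log2 fold change 0.53, adjusted p = 0.0363). None of 18 nucleic acid sensing genes passed, with Ddx58, the RNA sensor RIG-I, at 0.29 (adjusted p = 0.0923) and Tmem173, the DNA sensing adaptor STING, at -0.47 (adjusted p = 0.0789). None of 24 small RNA processing genes passed, with Tarbp2, a partner of Dicer, at 0.20 (adjusted p = 0.0928) and Tnrc6a, a silencing scaffold, at 0.25. By limma at an unadjusted p under 0.05, 1 of 8 Wnt ligand, 6 of 23 intracellular Wnt and 1 of 8 Hedgehog genes passed. So did 7 of 18 nucleic acid sensing and 3 of 24 small RNA genes, against 25.4% of all genes in either direction.

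Ribosomal protein genes were lower as a group without single calls. Of 78 genes, 76 had a fold change below 0, against 38.4% of all genes. In 68 of the 78 all 4 knockdown libraries lay below both controls, against 11.5% of all genes. The list's median was -0.26 (-0.19 after quantile normalization). Yet 0 passed the pooled test, with 56 at an unadjusted p under 0.05 by limma, against 25.4% of all genes. Rpl7, a protein of the large subunit, stood at 509 and 560.0 RPKM in the controls, 437 and 429 in the Glis3 knockdown and 393 and 399 in the CD133 knockdown (log2 fold change -0.37, SE 0.0810, adjusted p = 0.0524), and Rpl39 was at -0.35 (adjusted p = 0.0533). The median was -0.17 for the Glis3 and -0.37 for the CD133 knockdown, the opposite order to that of the mitosis list. The fit with 3 group means called 59 of the 78. None of 58 respiratory chain genes passed, against 4.85% of all genes, with 6 at an unadjusted p under 0.05 by limma, against 25.4% of all genes.

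Stress, hypoxia and lysosomal lists held between 1 and 5 calls each, where 3.75% of all genes rose and 1.1% fell. In the list of immediate early and dissociation stress genes 1 of 29 fell, Maff, a small Maf transcription factor, from 29.3 and 23.9 RPKM to 16.3 and 14.8 and 13.4 and 17.9 (log2 fold change -0.73, adjusted p = 0.0304). The median of that list was -0.21, but -0.099 without control library 1 and -0.34 without control library 3. In 24 of the 29 the fold change was below 0, against 38.4% of all genes. In 9 all 4 knockdown libraries lay below both controls, against 11.5% of all genes. Of 39 unfolded protein and integrated stress response genes 2 rose, Herpud1 (degradation of misfolded proteins) by 0.49 and Eif2ak3 (the stress sensor kinase PERK) by 0.32, and 1 fell, the asparagine synthetase gene Asns, by 0.36. Of 29 heat shock and chaperone genes the small heat shock gene Hspb8 fell by 0.50. Among 35 glycolysis and hypoxia genes Hk1, a hexokinase, rose by 0.32 and Bnip3l, a mitophagy receptor, fell by 0.41. In the lysosomal list of 40, with 2 rises and 3 falls, Ctsc, the dipeptidase cathepsin C, fell from 49.2 and 49.6 RPKM to 24.4 and 18.2 and 25.4 and 30.3 (log2 fold change -1.0, adjusted p = 0.0312), Smpd1 (acid sphingomyelinase) fell by 0.48 and Man2b1 (lysosomal alpha-mannosidase) rose by 0.33. The plot of lists by library places mitosis, cholesterol synthesis and DNA replication at one end and plasma proteins at the other.

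**Figure D5:**
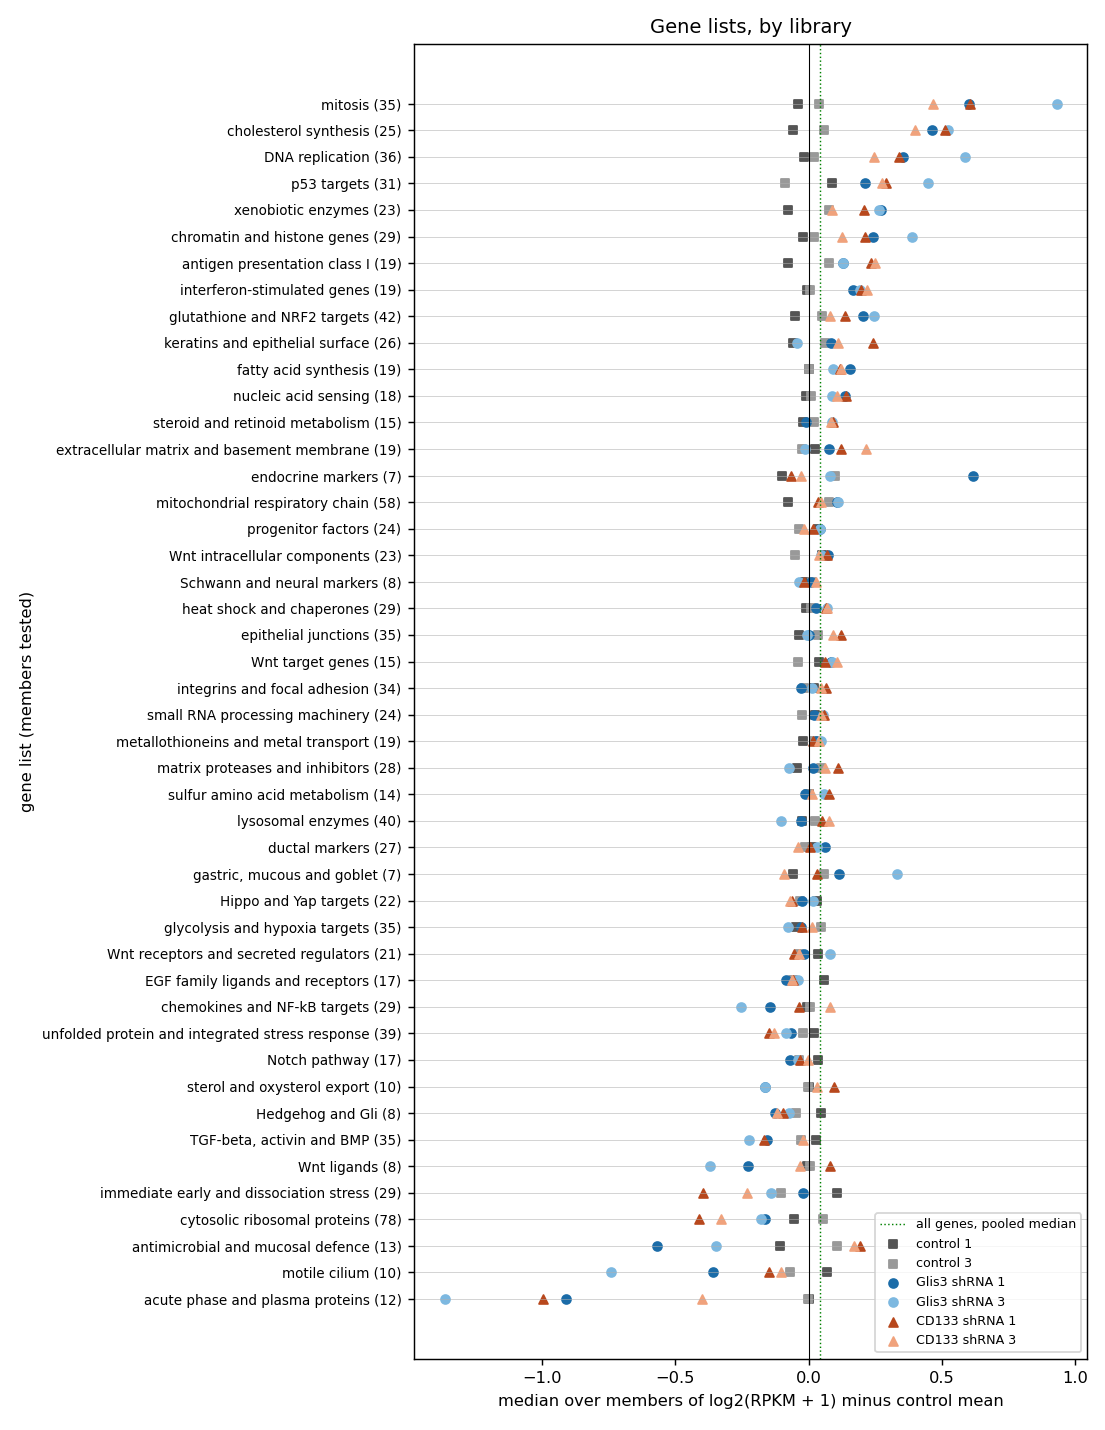
Median over the tested members of each gene list of log2(RPKM + 1) minus the control mean, one point per library, for lists with at least 5 tested members (their number in parentheses) and with the pooled median over all genes as a dotted line. The 4 knockdown points of mitosis, cholesterol synthesis and DNA replication lie right of both control squares and those of plasma proteins and ribosomal proteins left of them.

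Some of the most abundant transcripts also shifted slightly and evenly. Foxq1, a forkhead factor of epithelia, stood at 218 and 219 RPKM in the controls, 183 and 182 in the Glis3 knockdown and 178 and 182 in the CD133 knockdown (log2 fold change -0.27, SE 0.0517, adjusted p = 0.0404), with an unnamed locus overlapping it on the opposite strand. Sox4, a high-mobility-group factor of progenitor cells, was at 209 and 203 RPKM against 172 and 165 and 170.1 and 174 (log2 fold change -0.27, adjusted p = 0.0423). Larger falls among abundant genes were those of Fam213a, a redox protein, from 236 and 217 RPKM to 157 and 112 and 95.5 and 114 (log2 fold change -0.94, adjusted p = 0.0386), and Pdzk1ip1, a small membrane protein, from 179 and 159 RPKM to 100.2 and 85.4 and 66.6 and 84.7 (log2 fold change -1.01, adjusted p = 0.0222). Wwc1, the Hippo pathway scaffold KIBRA, fell by 0.39. Among abundant rises, Fam120a, an RNA-binding protein, went from 64.8 and 63.8 RPKM to 86.7 and 91.3 and 90.4 and 83.6 (log2 fold change 0.45, SE 0.0553, adjusted p = 0.0160). The splicing factor gene Sfpq rose by 0.31.

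Few of the called genes differed between the 2 pools. Of the 525, 7 (1.33%) differed between the Glis3 and CD133 knockdown libraries past an adjusted p of 0.05, against 440 of all 10829 genes (4.06%), a share that the pooled test itself lowers because a difference between the pools adds to its spread. Mmp13 fell further in the Glis3 knockdown (difference -1.03, SE 0.0944, adjusted p = 0.00852), with -2.14 for the Glis3 and -1.11 for the CD133 knockdown against the same controls. Cpm rose further in the Glis3 knockdown (1.48 against 0.96, difference 0.52, adjusted p = 0.0357), as did Id3 (1.17 against 0.72, difference 0.45, adjusted p = 0.0374) and Akr1c19 (1.15 against 0.82, difference 0.34, adjusted p = 0.0495). Cpe rose further in the CD133 knockdown (0.56 against 0.97, difference -0.41, adjusted p = 0.0467). A difference that did not pass does not show that the pools acted alike: for Pglyrp3 it was -0.77 with a 95% interval of -1.28 to -0.26, and for Ces1g 0.75 with an interval of -0.54 to 2.04.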

How the data were processed

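The authors deposited 1 table of RPKM values with 2 decimals for 11164 genes, the lowest gene maximum being 1 RPKM. Per the submitters' processing notes, TopHat2, HTSeq, bcl2fastq (2.18.0.12) and the build mm10 were used. Annotation, scaling total and use of strand are not stated there or in the labels. All 6 columns were matched to samples by the name in each description. Genes averaging 1 RPKM or more (10829) were kept, and log2(RPKM + 1) was fitted with limma 3.58.1 (R 4.3.3) as 2 groups (4 residual and 3.01 prior degrees of freedom) and, for differences between pools, as 3 group means (3 and 3.69), with a variance trend, two-sided tests and Benjamini-Hochberg adjustment. The fit was checked on simulated data. The comparison, the gene lists and the tests were chosen with earlier results of these data known. Genes were named by rule: both targets, the 20 largest rises and falls and the 5 most abundant each way with non-overlapping groups, up to 4 called members per list (otherwise 2 by smallest p), and the 5 largest differences between pools. Predicted loci were not named, and a few other genes of the rule are not reported here. Depth came from whole-read steps of genes under 1200 bases and 3 RPKM (91 to 103 values per library, 56.8% to 62.6% whole within 0.15 read). No count test was run. Symbols of 98.5% of genes matched GENCODE M21 (GRCm38).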

Additional observations from a re-analysis of the deposited data

Results flagged for a closer look

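Within the pooled group, some named genes differed between the 2 pools past an adjusted p of 0.05 (limma, 3 group means, Glis3 minus CD133 knockdown on the log2 scale, 2 libraries each). The targets differed by construction, Glis3 by -0.90 and Prom1 by 1.19. Of the genes past the pooled threshold, Mmp13 differed by -1.03, Cpm by 0.52, Id3 by 0.45, Cpe by -0.41 and Akr1c19 by 0.34. Reg1 differed by -2.40 (adjusted p = 0.0229), Fn1 by -0.64 (adjusted p = 0.00617), Ttr by 1.30 (adjusted p = 0.00474) and Acat2 by 0.38 (adjusted p = 0.0229), and none of these 4 passed the pooled test. Reg1 and Ttr went opposite ways against control: Reg1 stood at -1.74 for the Glis3 and 0.65 for the CD133 knockdown, and Ttr at 0.47 and -0.83.

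In 4 named genes a single library stood far from the other 3 of the pooled group, by Dixon's criterion for 4 samples, which chance meets in about 5% of groups. CD133 library 3 held Trf at 2.67 RPKM, the highest of the 4 and nearest to the controls. CD133 library 1 held Rnf43 at 30.6 RPKM and Tarbp2 at 5.36 RPKM, both highest and farthest from the controls. Glis3 library 3 held Herpud1 at 36.45 RPKM, the lowest of the 4 and nearest to the controls. The criterion was applied to 124 named genes.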

How the results depend on the processing

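Leaving out 1 library at a time gave 0 to 627 rises and 0 to 152 falls. By that step mitosis rises ran from 0 to 35, DNA replication from 0 to 19, cholesterol synthesis from 0 to 19, xenobiotic enzymes from 0 to 6 and plasma falls from 0 to 9, each 0 without either control. Differences between pools ran from 9 to 273 higher and 16 to 470 lower in the Glis3 knockdown, against 174 and 266 as reported. Of 101 named genes past the threshold, the number still past it was 0 without either control, 34 without CD133 library 1, 35 without Glis3 library 1, 77 without CD133 library 3, 93 without Glis3 library 3, 73 with quantile normalization, 85 with median centring, 73 of the 75 with a mean of at least 5 RPKM, and at least 88 with each pseudocount, without the filter, without the variance trend and with 3 group means.

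The counts moved by over 1.5 times, with causes not tested, in these settings. A mean of at least 5 RPKM, which tests fewer genes, gave 257 rises and 78 falls, 5 xenobiotic rises and 2 plasma falls, and no filter gave 7 plasma falls. Median centring gave 216 rises and 187 falls, 6 DNA replication and 4 xenobiotic rises. Quantile normalization gave 203 rises, 12 mitosis, 4 DNA replication and 5 xenobiotic rises, and a pseudocount of 5 gave 4 xenobiotic rises. The fit with 3 group means gave 1195 rises and 532 falls, 32 mitosis and 28 DNA replication rises and 9 plasma falls.

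The titles give every group the replicate numbers 1 and 3. Deviations of same-numbered libraries from their group means had r = -0.372 for control and Glis3, -0.428 for control and CD133, and 0.0322 for the pools. With 2 libraries per group, these values cannot show whether same-numbered libraries shared a mouse, culture or run. With a replicate block 28 genes rose and 4 fell, all 32 among the 525, and 28 were higher and 51 lower in the Glis3 than the CD133 knockdown. The block left 0 mitosis, 0 DNA replication, 1 cholesterol synthesis and 1 xenobiotic rise and 1 plasma fall, and 8 of the 101 named genes past the threshold.

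Reg1, Acat2, Ttr and Clu, which did not pass the pooled test, changed sign in some settings. Leaving out 1 library gave Reg1 values from -0.95 to 0.044 (without Glis3 library 3). Acat2, at 0.0020 as reported, was at -0.053 with median centring and -0.036 with quantile normalization, and from -0.064 to 0.070 as libraries were left out (negative without either Glis3 library or control library 1). Ttr ran from -0.42 to 0.075 (positive without CD133 library 1 or 3). Clu was at 0.37 with quantile normalization (adjusted p = 0.0183) and ran from -0.072 to 0.073 (positive without Glis3 or control library 3). Depth limits genes near 1 RPKM, and 2 control libraries limit every call.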
